A study of Homo sapiens with 2 samples.

Results

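The interferon-response genes described here are the protein-coding genes named IFI, IFNAR, IFNGR, OAS, STAT, APOBEC3 or GBP, with a set of interferon regulatory factors (IRF), Janus kinases (JAK), suppressors of cytokine signalling (SOCS) and effectors such as MX1, ISG15, BST2 and SAMHD1. They were found by matching Ensembl IDs to GENCODE 29 symbols, and 30 such genes were listed in at least 1 library, of 16145 IDs listed in all. The cells carry the label HAL-01, the name of a human line of B cell precursor leukaemia, and RNA from 1 AG culture and 1 Control culture was sequenced. AG stands for 1,5-anhydroglucitol (1,5-AG), a sugar that resembles glucose, which that culture received at 0.8 mM for 24 h. The sources used here do not say what was added to the Control culture. Levels are in FPKM, which divides fragments by gene length and by the library's total. Each group is a single library, so there is no replicate error to set a difference against and p-values are not given.

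Interferons are cytokines that alert cells to infection. Binding of a type I interferon to IFNAR1 and IFNAR2, or of interferon gamma to its receptor chain IFNGR1, activates JAK kinases, which phosphorylate STAT proteins. STATs and IRFs then enter the nucleus and switch on antiviral genes, many of which carry an interferon-stimulated response element (ISRE) or a gamma-activated site (GAS) in their promoters. Myeloid cells hold much SAMHD1, a hydrolase that depletes the dNTP pool and thereby limits reverse transcription.

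The totals implied by the FPKM values were 14857372 fragments in AG and 16240451 in Control. The lineage markers that were listed did not follow the label. Of 13 pre-B cell markers 9 were listed, 4 of them in both libraries. The summed level was 2.89 FPKM in AG and 2.80 FPKM in Control, and 0 were above 10 FPKM in either. The unlisted pre-B cell markers, CD79B, VPREB1, DNTT and PAX5, were not analysed here. Of 14 monocyte and granulocyte markers 7 were listed, of which 5 were above 10 FPKM in AG and 5 in Control. Their summed level was 497 FPKM in AG and 952 FPKM in Control. The unlisted markers of this type, among them CD14, CSF1R and SPI1, were not analysed here, so both lists are partial. The list of T and NK cell markers had 1 of 9 members listed, NKG7, at 10.3 FPKM in AG and 17.2 FPKM in Control. Of 7 markers of plasmacytoid dendritic cells 3 were listed, and CLEC4C, TCF4, LILRA4 and TLR9 were not analysed here. The stromal and erythroid markers that were listed were all below 0.4 FPKM in AG and below 0.2 FPKM in Control.

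Promoter windows of 20 of the 30 members were in the RefSeq table (GRCh38.p14), which spans the 250 bases before a gene's start and 50 after it. The ISRE core was searched on both strands of the 250 bases as 2 runs of GAAA with any 2 bases between them. It was present in 9 of the 20 members, against 3.71% of 27305 genes in the table. Its tandem form, with a further such run after any 2 bases, was present in 2 members, BST2 and ISG15, against 0.157% of genes. The GAS letters, TTC and GAA with any 3 bases between them, were present in 3 members, BST2, IRF1 and MX1, against 8.09% of genes. Of the 2 GAS matches of BST2, 1 overlapped the ISRE core, and the single match of MX1 did too. The windows of SAMHD1 and IFNGR1, the members that stood furthest above Control, held none of these letters. They are shown with those of BST2 and ISG15, the members with the repeat, as the 250 bases before the start, 5′ to 3′ on the gene's strand, with ISRE core letters in capitals.
SAMHD1, chr20:36951709-36951958, minus strand: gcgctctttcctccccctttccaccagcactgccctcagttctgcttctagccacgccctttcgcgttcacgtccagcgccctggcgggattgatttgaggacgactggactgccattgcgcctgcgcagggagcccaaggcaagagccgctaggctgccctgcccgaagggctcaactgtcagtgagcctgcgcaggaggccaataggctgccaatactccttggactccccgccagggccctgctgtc
IFNGR1, chr6:137219386-137219635, minus strand: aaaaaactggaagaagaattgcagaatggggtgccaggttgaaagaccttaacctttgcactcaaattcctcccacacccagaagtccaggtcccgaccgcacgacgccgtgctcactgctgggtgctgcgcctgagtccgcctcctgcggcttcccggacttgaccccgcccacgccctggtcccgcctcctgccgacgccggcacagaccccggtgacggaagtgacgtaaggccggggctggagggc
BST2, chr19:17405631-17405880, minus strand: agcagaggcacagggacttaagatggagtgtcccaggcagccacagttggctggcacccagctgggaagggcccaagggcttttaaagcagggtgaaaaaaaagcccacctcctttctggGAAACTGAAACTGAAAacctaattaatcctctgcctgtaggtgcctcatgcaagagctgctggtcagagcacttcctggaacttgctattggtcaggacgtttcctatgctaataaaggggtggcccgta
ISG15, chr1:1013247-1013496, plus strand: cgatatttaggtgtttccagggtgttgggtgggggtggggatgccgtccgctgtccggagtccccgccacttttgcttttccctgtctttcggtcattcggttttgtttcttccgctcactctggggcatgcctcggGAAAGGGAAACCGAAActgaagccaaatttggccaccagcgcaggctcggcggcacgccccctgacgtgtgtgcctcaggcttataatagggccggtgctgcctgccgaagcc

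The other 7 members with the ISRE core were IFI44, IFI44L, IFIT1, IFIT3, IFIT5, ISG20 and MX1. None of them was above 0.4 FPKM in either library. Their matches, again in capitals with 12 bases to either side where the window allowed, are shown (for IFI44L, IFIT3 and IFIT5, which have 2 matches far apart, the one furthest upstream) because they hold the same core as BST2 and ISG15 beside very different levels. A core on the other strand reads as 2 runs of TTTC.
IFI44, chr1:78649759-78649788, plus strand: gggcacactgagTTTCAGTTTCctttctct
IFI44L, chr1:78620272-78620305, plus strand: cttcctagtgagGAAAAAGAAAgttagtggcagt
IFIT1, chr10:89392495-89392541, plus strand: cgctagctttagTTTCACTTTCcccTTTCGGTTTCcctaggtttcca
IFIT3, chr10:89327829-89327862, plus strand: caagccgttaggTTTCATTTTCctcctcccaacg
IFIT5, chr10:89414511-89414544, plus strand: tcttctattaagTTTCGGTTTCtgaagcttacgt
ISG20, chr15:88638935-88638968, plus strand: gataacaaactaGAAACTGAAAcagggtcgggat
MX1, chr21:41431842-41431875, plus strand: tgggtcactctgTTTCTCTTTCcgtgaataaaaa
A match describes the letters in this window and is not evidence of binding. Among all 125 genes with the ISRE core and a mean of at least 1 FPKM, 5 were at least 1.5-fold higher in AG, or 4.0%, and 3 were at least 1.5-fold lower, or 2.4%. Among 3558 such genes without the core, 2.47% were higher and 1.21% were lower.

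Among the interferon-response genes whose mean reached 1 FPKM, SAMHD1 and IFNGR1 were past 1.5-fold and the other 10 were within it. A change was taken on the log2(FPKM + 1) scale and called higher or lower from 1.5-fold, for genes that both libraries list and whose mean reaches 1 FPKM. The pseudocount of 1 FPKM understates the change of low genes. Of the 30 members, 24 were listed in both libraries and 12 of these passed the mean of 1 FPKM. In these 12 members 2 were higher in AG, against 3.60% of all 5528 genes that passed the same filter, and 0 were lower, against 3.33% of all genes. The median log2 ratio was 0.07 for the 12 members and -0.03 for all genes. With no filter on low values it was 0.02 for members and -0.01 for all genes. A 95% counting interval of the FPKM ratio excluded 1 for 6 of the 12, of which 5 lay above 1, against 39.8% of 5490 genes with such an interval. Such intervals do not hold the spread that separate cultures would add.

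**Figure D1:**
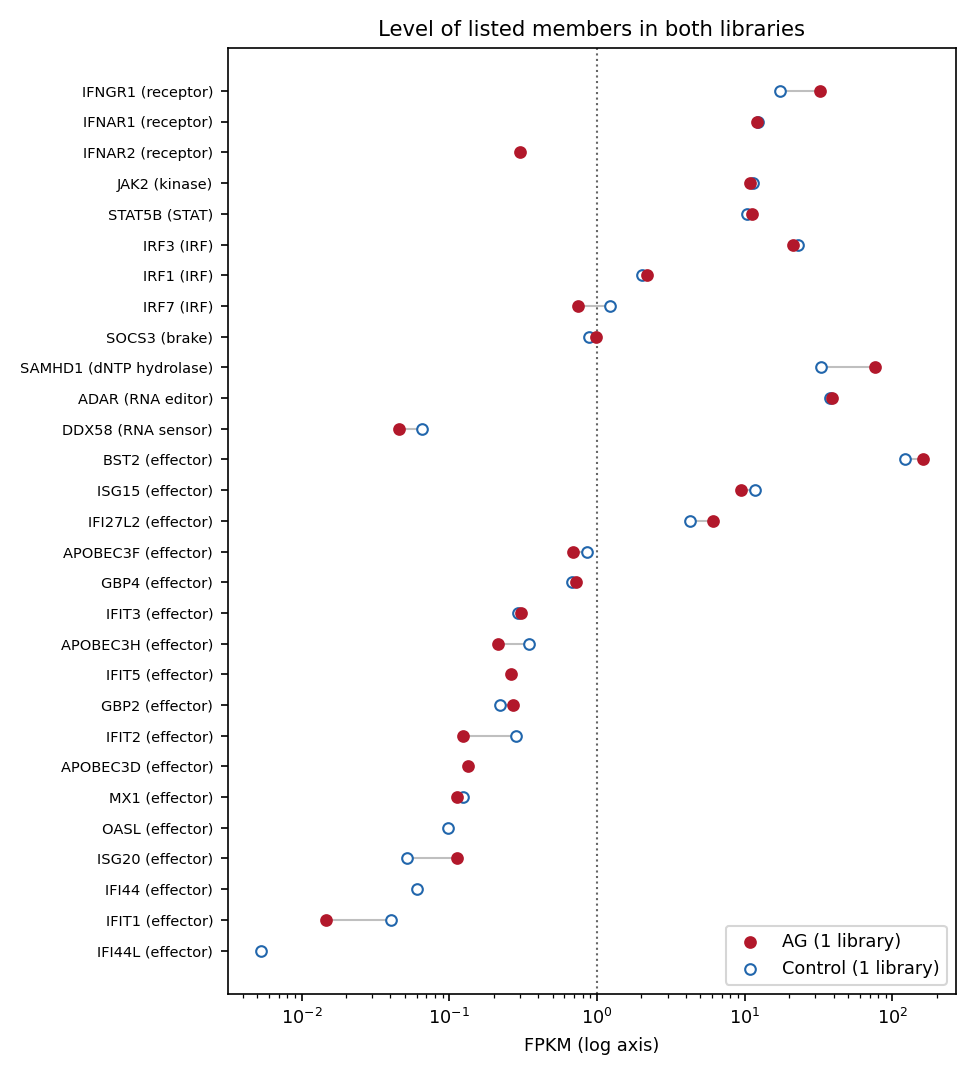
FPKM (log axis) of 29 of the 30 listed members in the AG library (filled red) and the Control library (open blue), grouped by role from receptors at the top to effectors at the bottom. The dotted line marks 1 FPKM, the grey line joins the values of 1 gene, and a gene with 1 point was listed in 1 library. SAMHD1 and IFNGR1 show the widest gaps among members above 1 FPKM.

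SAMHD1 had the largest difference of the 12 members. It had 76.6 FPKM in AG and 32.9 FPKM in Control. AG was the higher library, by 43.7 FPKM. The ratio was 2.33 (95% counting interval 2.26 to 2.41), from 12335 fragments in AG and 5785 in Control, and the log2 ratio was 1.20. It ranked 37th highest of 5528 genes by log2 ratio, and it was 194th by level in AG and 563rd in Control. SAMHD1 was the only one of the 12 members past 2-fold, which 1.18% of all genes were in that direction. Among the 1867 genes with a mean of 10 to 100 FPKM, the band in which SAMHD1 and 8 other members lay, 0.857% were at least 2-fold higher. The gene (ENSG00000101347) lies on the minus strand of chromosome 20 at 36889773 to 36951901 in GRCh38 and has 27 annotated transcripts, so its value sums over them.

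Neighbouring genes were not all higher. The 3 preceding protein-coding genes on chromosome 20 were DSN1, SOGA1 and TLDC2. DSN1, a kinetochore protein, had 23.7 FPKM in AG and 27.2 FPKM in Control. SOGA1 had 15.5 FPKM in AG and 16.2 FPKM in Control. TLDC2, which overlaps SAMHD1 on the opposite strand, had 0.633 FPKM in AG and 0.289 FPKM in Control, far below the level of SAMHD1. On the other side of SAMHD1, MROH8 had 0.312 FPKM in AG and 0.540 FPKM in Control. RBL1 and RPN2, also on that side, were not analysed here.

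Some genes of myeloid maturation and granules also differed between these libraries. ITGAM, the CD11b integrin chain, had 8.30 FPKM in AG and 1.55 FPKM in Control. The granule protease CTSG had 194 FPKM in AG and 743 FPKM in Control. The 7 listed monocyte and granulocyte markers had a median log2 ratio of 0.28, and 3 of them were within 1.5-fold. On the higher side 2 were past it, against 3.60% of all genes, and on the lower side 2, against 3.33%. The part of these 7 markers in the SAMHD1 and IFNGR1 differences was not tested. In a bulk library, more cells of a type and more RNA per cell cannot be told apart.

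The interferon gamma receptor chain IFNGR1 differed from the type I receptor chain IFNAR1. IFNGR2, whose name also matches the rule, was not analysed here. IFNGR1, which binds interferon gamma, had 32.5 FPKM in AG and 17.3 FPKM in Control. The ratio was 1.88 (1.73 to 2.04) on 1581 fragments in AG and 920 in Control, with a log2 ratio of 0.87, rank 96 of 5528. IFNAR1, a chain of the type I receptor, had 12.1 FPKM in AG and 12.2 FPKM in Control. Its ratio was 0.990 (0.916 to 1.07), so its interval did not overlap that of IFNGR1. IFNAR2, the partner of IFNAR1, was listed in AG only, at 0.301 FPKM, and its value in Control was not analysed here. IFNGR1 (ENSG00000027697) lies on the minus strand of chromosome 6 at 137197484 to 137219449. Of its nearest protein-coding neighbours on that chromosome, PERP, 3 genes away, had 10.8 FPKM in AG and 8.02 FPKM in Control. SLC35D3, 3 genes away on the other side, had 0.144 FPKM in AG and 0.131 FPKM in Control. The nearer genes, IL20RA, IL22RA2, OLIG3 and TNFAIP3, were not analysed here.

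JAK2, the kinase that IFNGR signalling shares with many cytokine receptors, was at a like level in both libraries. It had 10.9 FPKM in AG and 11.4 FPKM in Control, a ratio of 0.951 (0.882 to 1.03). STAT5B, which relays growth factor and interleukin signals, had 11.1 FPKM in AG and 10.4 FPKM in Control, a ratio of 1.07 (0.981 to 1.16). STAT5B has a close relative, STAT5A, with which reads can be shared. The intervals of both JAK2 and STAT5B held 1, and their bounds lay within 1.5-fold of equality.

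The 3 listed IRFs spanned a wide range of levels. IRF3, the constitutive factor that starts interferon production after viral sensing, had 21.3 FPKM in AG and 23.1 FPKM in Control. Its ratio was 0.925 (0.856 to 1.00), with an upper bound just under 1. IRF3 overlaps BCL2L12 on the opposite strand, which had 23.1 FPKM in AG and 24.6 FPKM in Control. IRF1, an interferon-inducible activator, had 2.18 FPKM in AG and 2.01 FPKM in Control, a ratio of 1.08 (0.942 to 1.25). IRF7, the amplifier of the type I response, had 0.747 FPKM in AG and 1.23 FPKM in Control, so its mean was just under the filter. Its ratio was 0.610 (0.373 to 0.978), on 29 fragments in AG and 52 in Control. It was the 1 member of the 12 below the filter whose interval excluded 1. SOCS3, a feedback inhibitor induced by STATs, had 0.985 FPKM in AG and 0.878 FPKM in Control, and its ratio of 1.12 (0.703 to 1.79) was not distinguishable from 1 at this depth.

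ADAR and DDX58 act on RNA. ADAR, which edits adenosine to inosine and so masks cellular RNA from sensors, had 39.0 FPKM in AG and 37.6 FPKM in Control. Its ratio of 1.04 (1.01 to 1.07) rested on 7100 fragments in AG and 7469 in Control. The interval excluded 1, with both bounds well within 1.5-fold. DDX58, the RNA sensor RIG-I, had 0.0455 FPKM in AG and 0.0655 FPKM in Control, from 7 fragments in AG and 11 in Control.

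**Figure D2:**
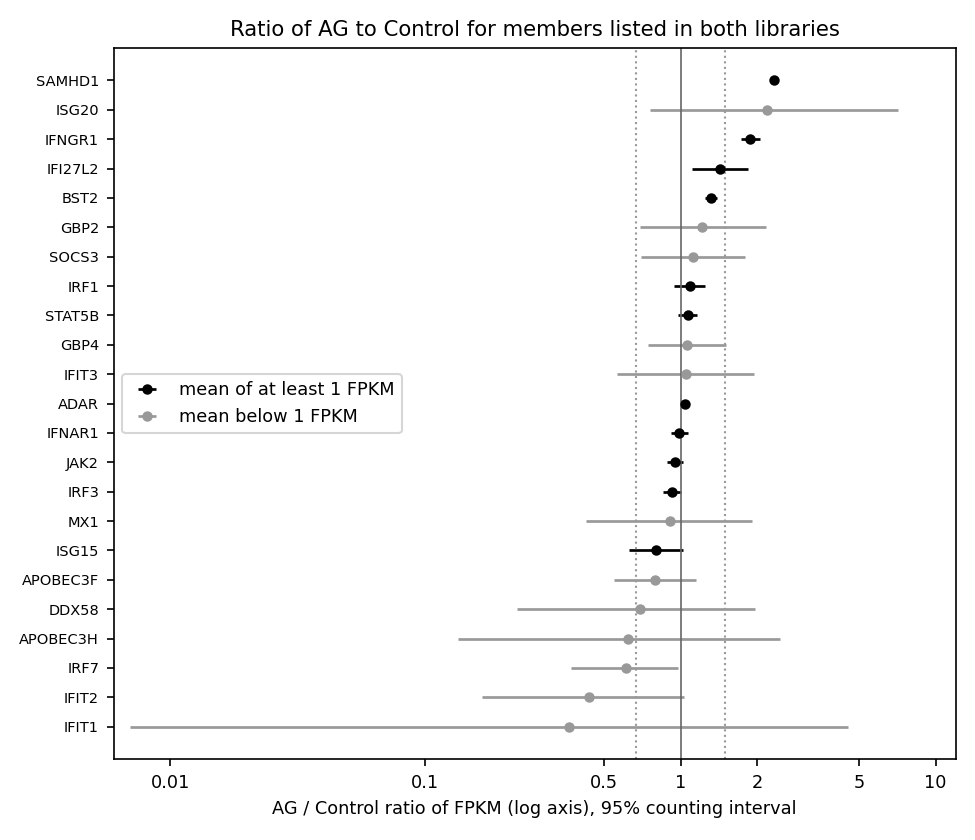
AG to Control ratio of FPKM (log axis) for 23 of the 24 members listed in both libraries, in order of ratio, with bars for the exact 95% counting interval; black points have a mean of at least 1 FPKM and grey points a lower mean. The solid line marks a ratio of 1 and the dotted lines 1.5-fold either way. SAMHD1 at 2.33 and IFNGR1 at 1.88 have intervals wholly beyond 1.5-fold, and most grey bars cross 1.

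The effectors comprised a few well-expressed genes and many near 0. BST2, or tetherin, which holds budding virions at the cell surface, was the member of highest level. It had 160 FPKM in AG and 122 FPKM in Control, rank 68 and rank 108 of 5528 genes. Its ratio was 1.32 (1.24 to 1.39), below the 1.5-fold threshold. IFI27L2, a relative of the interferon-induced gene IFI27, had 6.09 FPKM in AG and 4.27 FPKM in Control, a ratio of 1.43 (1.11 to 1.85). ISG15, a ubiquitin-like protein conjugated to other proteins after interferon, was on the other side of 1. It had 9.47 FPKM in AG and 11.8 FPKM in Control, a ratio of 0.803 (0.631 to 1.02) on 122 and 166 fragments. BST2 and ISG15, whose windows above both hold the ISRE repeat, had ratios on opposite sides of 1. Their intervals did not overlap, but that of ISG15 held 1.

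The remaining effectors listed in both libraries numbered 9, and their levels were below 1 FPKM in AG and in Control. The RNA-binding proteins IFIT1, IFIT2 and IFIT3 together held 32 fragments in AG and 47 in Control. IFIT1 had 0.0146 FPKM in AG and 0.0400 FPKM in Control, from 1 fragment in AG and 3 in Control, a ratio of 0.364 (0.00694 to 4.54). IFIT2 had 0.124 FPKM in AG and 0.285 FPKM in Control, and IFIT3 had 0.306 FPKM in AG and 0.292 FPKM in Control. These 3 genes lie within the annotated span of LIPA, lysosomal acid lipase, on the opposite strand. LIPA had 30.4 FPKM in AG and 18.3 FPKM in Control. The overlap is one of annotated gene spans, and overlap of exons was not analysed here. The strand setting of the counting is not given, and whether reads were shared between these genes was not tested.

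MX1, a GTPase that blocks viral replication, had 0.112 FPKM in AG and 0.123 FPKM in Control. The exonuclease ISG20 had 0.112 FPKM in AG and 0.0514 FPKM in Control, and its ratio of 2.19 rested on 12 and 6 fragments, with an interval from 0.759 to 7.10. Among the guanylate-binding proteins, GTPases that attack vacuoles of pathogens, GBP4 had 0.723 FPKM in AG and 0.682 FPKM in Control. GBP2 had 0.270 FPKM in AG and 0.222 FPKM in Control. Of the APOBEC3 cytidine deaminases, which mutate viral DNA, APOBEC3F had 0.684 FPKM in AG and 0.862 FPKM in Control. APOBEC3H had 0.215 FPKM in AG and 0.345 FPKM in Control, from 4 and 7 fragments. APOBEC3, GBP and IFIT genes have close relatives that can share reads.

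Summed over these 9 effectors, 211 fragments were recovered in AG and 245 in Control. Scaled to the library totals the ratio was 0.941 (0.779 to 1.14). That interval covers counting error of the pooled ratio and does not describe single genes. The most fragments came from GBP4, with 66 in AG and 68 in Control, and APOBEC3F, with 53 in AG and 73 in Control. The 6 members listed in 1 library only had levels from 0.00530 to 0.301 FPKM. APOBEC3D (0.133 FPKM), IFIT5 (0.262 FPKM) and IFNAR2 (0.301 FPKM) had a value in AG alone. IFI44 (0.0604 FPKM), IFI44L (0.00530 FPKM) and OASL (0.0975 FPKM) had a value in Control alone. The other 40 genes that the rule matches in GENCODE 29, among them JAK1, TYK2, STAT2, STAT3, IRF9 and OAS1, were not analysed here. The pathway is therefore described only in part.

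**Figure D3:**
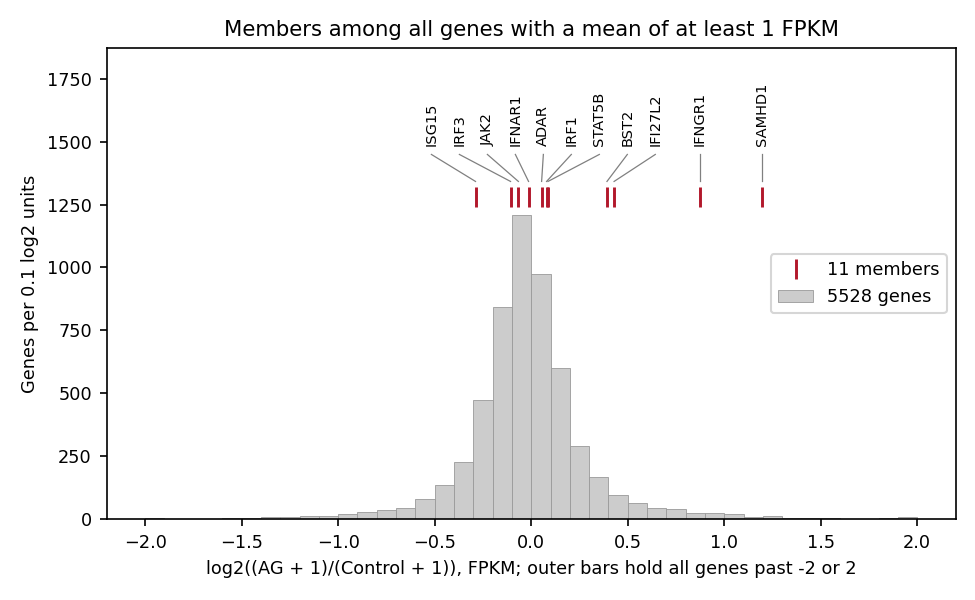
Number of genes (vertical axis) per 0.1 units of log2((AG + 1)/(Control + 1)) (horizontal axis) for all 5528 genes whose mean reached 1 FPKM, with red ticks for 11 of the 12 members. Most members lie with the bulk of genes near 0, BST2 and IFI27L2 lie at 0.39 and 0.43, and IFNGR1 and SAMHD1 lie at 0.87 and 1.20.

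In summed level, the 12 members held 397 FPKM in AG and 300 FPKM in Control. BST2 made up 40.4% of this sum in AG and 40.7% in Control. SAMHD1 made up 19.3% in AG and 11.0% in Control. The sum differed by 97.1 FPKM, to which SAMHD1 contributed 43.7, BST2 38.4 and IFNGR1 15.2.

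Lists of related genes outside the rule are read against the same background, 3.60% of all genes higher and 3.33% lower. Of 55 other interferon-stimulated genes 17 passed the filter, of which 1 was higher in AG, 0 were lower and 11 had a log2 ratio above 0 (median 0.12), so the share higher was near the background. The higher gene was DDX60L, a helicase-like protein, at 17.6 FPKM in AG and 11.0 FPKM in Control. LAP3, an aminopeptidase, was next, at 26.8 FPKM in AG and 17.8 FPKM in Control, a log2 ratio of 0.57. TNFSF10, the death ligand TRAIL, had 2.86 FPKM in AG and 4.24 FPKM in Control, the lowest log2 ratio of the list at -0.44. UBA7, the enzyme that activates ISG15, had 19.3 FPKM in AG and 22.7 FPKM in Control.

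Genes that restrain JAK-STAT signalling included the member of these lists that stood furthest apart. SH2B3, the adaptor LNK, which inhibits JAK2, had 16.0 FPKM in AG and 7.06 FPKM in Control. Its ratio was 2.26 (2.06 to 2.49). It was the 1 gene of 9 that was higher, against 3.60% of all genes, with 0 lower, against 3.33%, and a median log2 ratio of 0.13. CBL, a ubiquitin ligase of activated receptors, had 36.4 FPKM in AG and 30.1 FPKM in Control. SOCS5 had 3.98 FPKM in AG and 4.54 FPKM in Control, and PIAS2 had 2.42 FPKM in AG and 2.60 FPKM in Control.

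The lists of sensing and of other receptors held 5 genes each above the filter, too few to read the absence of calls against a background of 3.60% higher and 3.33% lower. All 5 filtered genes of nucleic acid sensing and relay were within 1.5-fold. Their median was 0.05, against -0.0065 with no filter on low values. IRAK1, a kinase of Toll-like receptor signalling, had 113 FPKM in AG and 90.2 FPKM in Control, and TBK1, which phosphorylates IRF3, had 3.56 FPKM in AG and 3.29 FPKM in Control. MAVS, the adaptor of RIG-I, had 11.3 FPKM in AG and 12.5 FPKM in Control, and UNC93B1, which escorts Toll-like receptors, had 42.4 FPKM in AG and 43.0 FPKM in Control. IRF8, a factor of monocyte and dendritic cell development named after its value was seen, had the highest level on this list, at 196 FPKM in AG and 189 FPKM in Control. Of 5 other receptor genes that use JAK kinases, 0 were past 1.5-fold and 1 had a log2 ratio above 0. Their median was -0.15, against -0.0056 with no filter on low values. IL4R had 6.62 FPKM in AG and 5.18 FPKM in Control, IL6R had 84.6 FPKM in AG and 98.7 FPKM in Control, IL7R had 1.07 FPKM in AG and 1.47 FPKM in Control, and the leptin receptor LEPR had 1.11 FPKM in AG and 1.18 FPKM in Control.

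SAMHD1 degrades dNTPs, and genes of dNTP supply and use formed a further list. Of its 26 genes 12 were listed in at least 1 library, so the list is partial. All 10 above the filter were within 1.5-fold. They are too few to read this against the background shares of 3.60% higher and 3.33% lower. Of the 10 genes, 4 had a log2 ratio above 0 and the median was -0.12. NUDT1, which clears oxidised nucleotides, had 16.5 FPKM in AG and 23.8 FPKM in Control, a log2 ratio of -0.50. NT5C, a nucleotidase, had 3.42 FPKM in AG and 4.70 FPKM in Control. MTHFD2, a mitochondrial folate enzyme, had 11.0 FPKM in AG and 9.29 FPKM in Control, and GUK1, guanylate kinase, had 29.9 FPKM in AG and 25.7 FPKM in Control. Of the nucleases of self nucleic acids 2 passed the filter. Of these, SKIV2L, an RNA exosome helicase, had 16.7 FPKM in AG and 16.5 FPKM in Control.

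**Figure D4:**
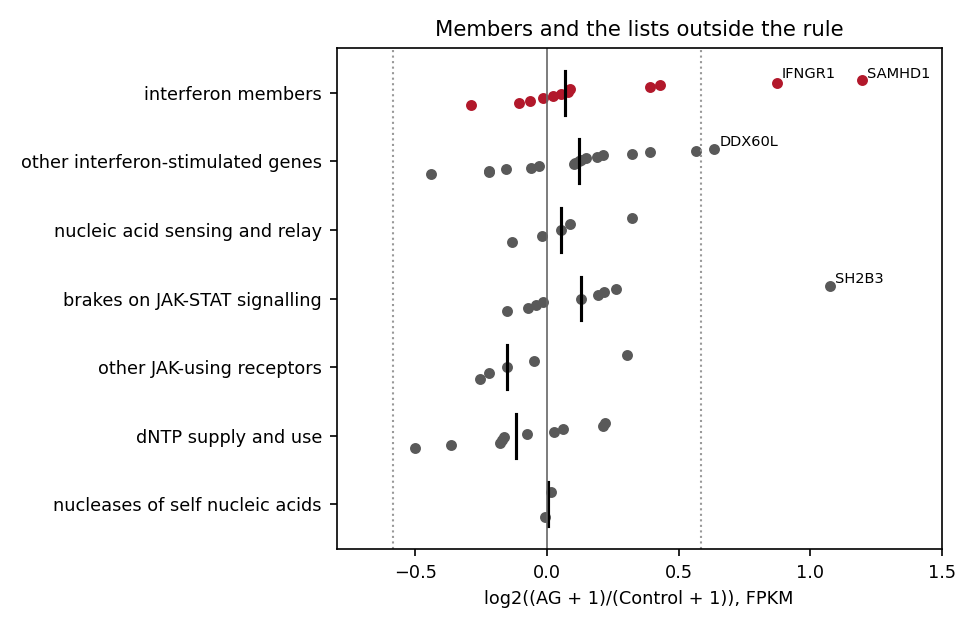
The log2((AG + 1)/(Control + 1)) ratio (horizontal axis) of the 12 interferon members (red) and of genes of the 6 lists outside the rule (grey), each point 1 gene whose mean reached 1 FPKM. Black bars mark medians, from -0.15 for the other receptors to 0.13 for the brakes, and dotted lines mark 1.5-fold. SAMHD1, IFNGR1, DDX60L and SH2B3 lie past it on the higher side and no gene lies past it on the lower side.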

How the data were processed

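Gene expression was measured by RNA-seq in 2 libraries of cells labelled HAL-01, made from Trizol-extracted RNA with a stranded mRNA kit, per the labels' protocols. The authors deposited FPKM for each Ensembl gene. Per the submitters' processing notes, the tools were HISAT2, HTSeq, Cufflinks and Trimmomatic and the genome build was hg38, with no version or role stated. Which annotation, strand setting and filters they used is not given in the sources available. The files list no zeros, so a gene without a value was neither set to 0 nor compared.

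Of 16145 IDs, 97.1% matched GENCODE 29, whose GRCh38 coordinates are given. Whole fragment numbers were recovered from the FPKM values. The total of each library was fitted to the FPKM values of genes of 1 transcript, at 14857372 fragments in AG and 16240451 in Control. Scaled by that total, FPKM times exon length came out whole, within 0.01, for 88.1% of 5259 such genes in AG and 88.4% of 5315 in Control. For a gene listed in both libraries, the simplest pair of whole numbers within rounding was taken, at the whole gene length nearest to the GENCODE 29 exon length. Pairs were found for 99.3% of genes whose mean reached 1 FPKM. Lengths under the authors' annotation can differ, and pairs with a common factor depend on this choice. Ratios have exact Clopper-Pearson 95% intervals from these pairs. Fragments are not independent molecules, so intervals cover counting error only.

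A single library per group allows no test of the conditions. Every member could be named, and of each list outside the rule the members past 1.5-fold and the 2 highest and 2 lowest log2 ratios were named. A few genes, 1 member among them, are counted in the totals but not reported here by name. The members, lists and alternatives were chosen with earlier results of these data known. Promoter windows are from RefSeq, and where a gene had several, any match counted. Whole windows shown are those furthest upstream, and short stretches come from the first window with a match, which for MX1 is the furthest downstream. The steps were tested on simulated data. Computation used matplotlib 3.10.9, pandas 2.3.3, scipy 1.17.1 and numpy 2.4.6 under Python 3.11.15.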

Additional observations from a re-analysis of the deposited data

How the results depend on the processing

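The alternatives were pseudocounts of 0.1 and 5 FPKM, no filter on low values, a mean of at least 5 FPKM, rescaling to a common FPKM total, scaling the median of ratios to 1, a 2-fold threshold, and leaving out members that share reads with close relatives, of which STAT5B was the one above the filter. SAMHD1 and IFNGR1 stayed past 1.5-fold, and the other named members within it, under every alternative that gave a value. With a pseudocount of 5 FPKM the log2 ratio was 1.108 for SAMHD1 and 0.7497 for IFNGR1, as a larger pseudocount shrinks ratios by construction. At 2-fold the number of members higher in AG was 1. The sign of a named member changed once, for IFNAR1, at 0.01931 with the median of ratios set to 1. The number of other interferon-stimulated genes higher in AG was 2 with a pseudocount of 0.1 FPKM and 2 with the median of ratios set to 1, against 0 with a pseudocount of 5 FPKM and 0 at 2-fold. Medians of lists ranged over the alternatives from 0.01899 to 0.09649 for the members, 0.06964 to 0.1896 for other interferon-stimulated genes, 0.07801 to 0.2049 for the brakes, -0.1681 to -0.005615 for the other receptors, -0.1234 to -0.07616 for dNTP supply and -0.006459 to 0.08911 for sensing, the last with the median of ratios set to 1. That scaling multiplied AG values by 1.025, and the common FPKM total multiplied them by 1.005. Counting intervals were not recalculated under these scalings. The interval of IRF3, with an upper bound just under 1, would hold 1 under either. In all genes, 52.0% of calls were higher in AG, against 48.0% with a pseudocount of 0.1 FPKM, 64.0% with one of 5 FPKM and 65.0% at a mean of at least 5 FPKM. No paired analysis was possible because each group has 1 library. For the same reason no replicate could be left out. Depth limited the members below 1 FPKM, whose intervals mostly held 1.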
